A study of Rattus norvegicus with 20 samples.

Results

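The uncoupling proteins Ucp1 (ENSRNOG00000003580), Ucp2 (ENSRNOG00000017854) and Ucp3 (ENSRNOG00000017716) were picked by their Ensembl identifiers, 3 of the 32883 genes in the deposited table. They were followed in 20 RNA sequencing libraries from 10 rats of a Fischer 344 x Brown Norway cross, aged 8 months, with no treatment named. Every rat gave 1 library of gastrocnemius, a calf muscle of mixed fibre types, and 1 of white adipose tissue from the abdomen. The design text counts 5 males and 5 females, but all 20 sample labels read male, so sex was not used. The question was which uncoupling protein each tissue used, and whether the adipose libraries held the transcript of heat-producing fat.

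Uncoupling proteins are carriers of the inner mitochondrial membrane. Ucp1 lets protons return to the matrix without making ATP, which releases heat, and it defines brown and beige fat. Ucp2 is found in many tissues, among them white fat and cells of the immune system. Ucp3 is known mainly from skeletal muscle and brown fat, where its transcript follows the supply of fatty acids.

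Ucp2 and Ucp3 are neighbours on 1 chromosome, and the RefSeq gene table (GRCr8) placed no other gene between them. Ucp1 lies on another chromosome. The 250 bases before each gene's start are shown because the neighbouring genes were used in different proportions in the 2 tissues. The sequences are RefSeq's for the build GRCr8, 5′ to 3′ on the gene's strand, at chr19:41721422-41721671 (minus strand) for Ucp1, chr1:164251123-164251372 (plus strand) for Ucp2 and chr1:164227660-164227909 (plus strand) for Ucp3. Capitals mark TGACG and TATAAA in Ucp1, each CG pair in Ucp2, and AGGTCA and CAGCTG in Ucp3.
Ucp1: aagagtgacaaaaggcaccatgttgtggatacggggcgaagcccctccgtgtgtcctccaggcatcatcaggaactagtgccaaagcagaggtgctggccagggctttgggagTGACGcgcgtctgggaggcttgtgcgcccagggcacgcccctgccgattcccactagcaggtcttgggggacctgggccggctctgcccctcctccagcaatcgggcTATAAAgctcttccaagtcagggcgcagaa
Ucp2: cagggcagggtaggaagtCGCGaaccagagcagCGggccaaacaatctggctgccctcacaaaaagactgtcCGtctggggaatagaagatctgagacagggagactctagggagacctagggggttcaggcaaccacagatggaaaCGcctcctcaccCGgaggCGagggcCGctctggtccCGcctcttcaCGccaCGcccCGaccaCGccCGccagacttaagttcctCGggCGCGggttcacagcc
Ucp3: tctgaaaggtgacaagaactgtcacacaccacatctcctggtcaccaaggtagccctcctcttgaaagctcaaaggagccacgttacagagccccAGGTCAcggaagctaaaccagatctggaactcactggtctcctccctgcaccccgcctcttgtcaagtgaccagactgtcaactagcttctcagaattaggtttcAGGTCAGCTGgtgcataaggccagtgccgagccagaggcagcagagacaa

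The 3 windows differed in composition. Ucp2 had 62.8% G and C and 17 CG pairs, Ucp1 62.0% and 12, and Ucp3 53.6% and 4, beside medians of 51.2% and 5 over 33469 RefSeq windows of the same length. Motifs were searched on both strands. TATAAA, the TATA box, was present in Ucp1 at bases 30 to 25 before the start, and 12.9% of all windows held it. TGACG, the core of the cyclic AMP response element, was present in Ucp1 at bases 137 to 133, and 18.2% of windows held it. AGGTCA, an element read by nuclear receptors, occurred 2 times in Ucp3, at bases 155 to 150 and 50 to 45, and 14.1% of windows held at least 1. CAGCTG, an E-box, occurred in Ucp3 at bases 46 to 41, overlapping the nearer AGGTCA, and 12% of windows held it. No GGGCGG, the GC box held by 30.5% of windows, was in any of the 3, and Ucp2 held none of the 5 motifs. These matches describe letters only, since no binding was measured.

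Read totals ran from 8446753 to 20141854 per muscle library and from 11067755 to 25904309 per adipose library. The choice of scaling moved the fold changes between the tissues. The median log2 fold change, muscle over adipose, of the 13806 tested genes was -0.09 with TMM factors (trimmed mean of M values, a scaling that takes most genes as unchanged) and -1.39 with library totals alone. Of the tested genes 11011 (79.8%) differed between the tissues (edgeR quasi-likelihood test, adjusted p below 0.05), with 5187 (37.6%) up in muscle and 5824 (42.2%) up in adipose tissue. With library totals the split was 1704 and 10233. Levels are given below in CPM, reads per 1000000 reads, on both scales. Of the members, Ucp2 and Ucp3 passed the filter on low counts and Ucp1 did not. In these whole-tissue samples, fewer cells of a type and less RNA per cell cannot be told apart. The labelled tissues could not be checked against marker genes, because the identifiers in the table could not be paired with symbols here.

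Ucp2 was higher in adipose tissue. Its reads ran from 1516 to 4004 per adipose library, with a median of 2868, and from 37.3 to 108 per muscle library, with a median of 71.5. With TMM factors the level was 76.5 CPM at the lowest, 118 at the median and 157 at the highest in adipose tissue, and 4.40, 6.64 and 8.86 CPM in muscle. The lowest adipose library, that of animal 7, stood 8.64 times above the highest muscle library, that of animal 9, so the tissues did not overlap. Of all tested genes, 24.5% were likewise above in adipose tissue with no overlap on this scale, and 50.2% by library totals.

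The mean Ucp2 level was 116 ± 26.1 CPM over the adipose libraries against 6.61 ± 1.61 over the muscle libraries (SD, n = 10, TMM factors). By library totals it was 184 ± 50.4 and 4.25 ± 1.19 CPM. The log2 fold change, muscle over adipose, was -4.13 (SE 0.17, 95% interval -4.48 to -3.79, edgeR adjusted p = 1.55e-15), a 17.5-fold difference. Only 492 of the tested genes, or 3.56%, had a lower value. With library totals the log2 fold change was -5.43. On both scales each of the 10 animals had more Ucp2 in adipose tissue.

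Among animals, Ucp2 varied 2.05-fold from the lowest to the highest adipose library and 2.01-fold among muscle libraries (TMM factors). The coefficient of variation was 22.5% in adipose tissue and 24.3% in muscle. Counting error alone gives 1.87% at the median adipose read number and 11.8% at the median muscle read number, so less is known of the spread in muscle. On the log2 scale the SD of Ucp2 was 0.34 in adipose tissue, next to a median of 0.34 over all genes that averaged 5 CPM or more there, and 0.35 in muscle, next to 0.28. Macrophages and other leukocytes also carry Ucp2, and their part in the adipose level was not tested.

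**Figure D1:**
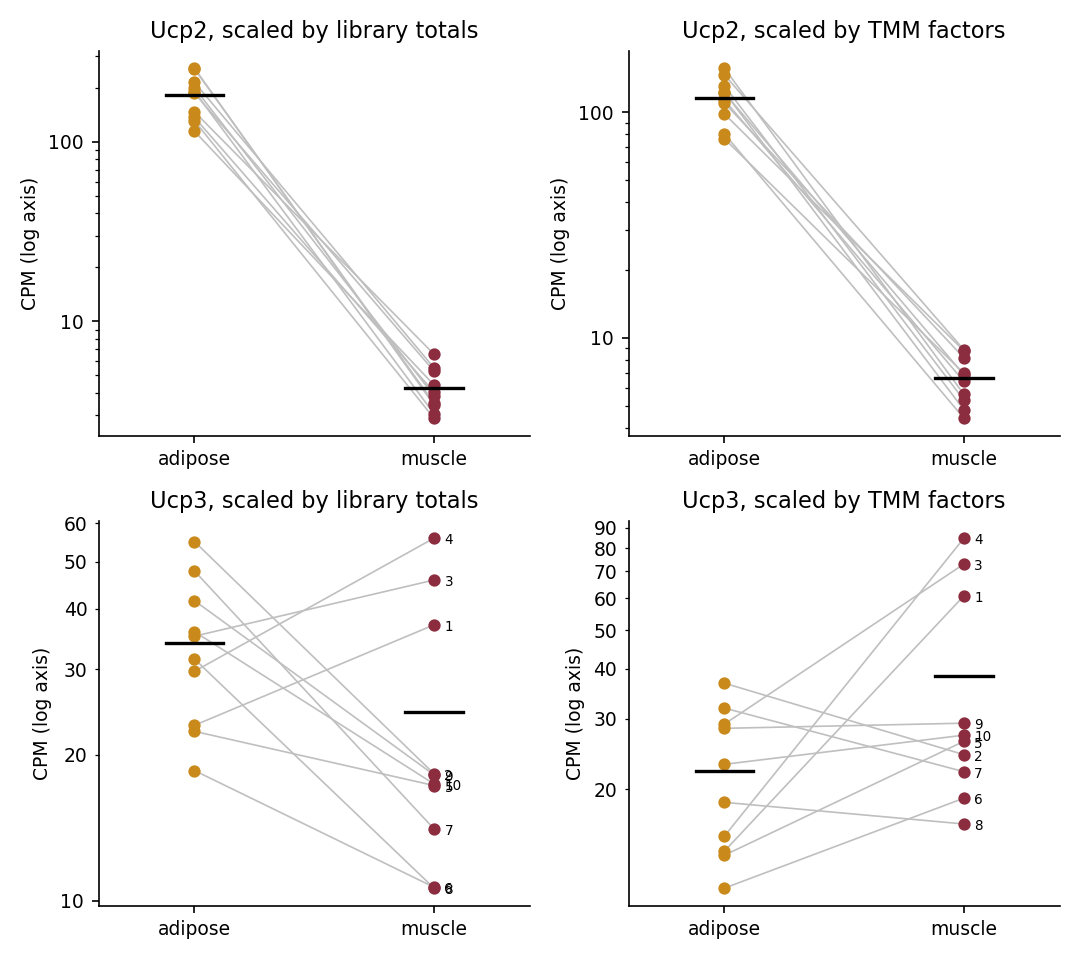
Levels of Ucp2 (top) and Ucp3 (bottom) in CPM on log axes, scaled by library totals (left) or TMM factors (right). Points are libraries, grey lines join the libraries of 1 animal, black bars are means of 10 libraries, and numbers beside the muscle points of Ucp3 are animals. Ucp2 is higher in adipose tissue in all 10 animals on both scales, while the Ucp3 lines cross and the order of its means turns with the scale.

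Ucp3 was present in both tissues. Its reads ran from 119 to 874 per muscle library, with a median of 281, and from 250 to 774 per adipose library, with a median of 492. Scaled by library totals, muscle libraries held 10.6 CPM at the lowest, 17.8 at the median and 56.0 at the highest, and adipose libraries 18.6, 33.3 and 55.0 CPM. With TMM factors the same values were 16.4, 26.9 and 84.8 CPM in muscle and 11.3, 20.8 and 36.8 CPM in adipose tissue. The libraries of the 2 tissues overlapped on both scales.

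The direction of the Ucp3 difference depended on the scaling. With TMM factors the mean was 38.4 ± 24.8 CPM over muscle libraries against 22.2 ± 8.91 over adipose libraries (SD, n = 10), and muscle was higher in 7 of 10 animals. The log2 fold change was 0.79 (SE 0.31, 95% interval 0.15 to 1.43, edgeR adjusted p = 0.0241). With library totals the mean was 24.5 ± 15.9 CPM over muscle libraries against 34.1 ± 11.6 over adipose libraries, and muscle was higher in 3 of 10 animals. The log2 fold change was then -0.47 (95% interval -1.09 to 0.14, edgeR adjusted p = 0.14). With the animal as a block it was 0.65 and did not pass (95% interval 0.00052 to 1.30, edgeR adjusted p = 0.0619). Set against the median of all tested genes, Ucp3 stood higher in muscle by 0.88 with TMM factors and by 0.92 with library totals (log2). A change of scaling moves Ucp3 and this median together, so the 2 values are not independent. With TMM factors, 72.4% of the tested genes had a lower log2 fold change than Ucp3, and 38.0% a smaller absolute one.

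Animals 1, 3 and 4 carried the high muscle values of Ucp3. Their muscle libraries held 60.9, 73.1 and 84.8 CPM (TMM factors), each above every adipose library. The other 7 muscle libraries lay between 16.4 and 29.3 CPM, within the adipose range of 11.3 to 36.8. The step between these 2 sets of muscle libraries was 2.08-fold. The adipose libraries of animals 1, 3 and 4 held 14.0, 29.1 and 15.3 CPM and did not stand apart. Without animal 4 the log2 fold change was 0.54 (edgeR adjusted p = 0.104), and without animal 1 it was 0.64 (edgeR adjusted p = 0.0805); neither passed.

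Ucp3 was among the more variable genes in both tissues. The SD of its log2 level was 0.84 in muscle, above that of 95.1% of 9333 genes that averaged 5 CPM or more there. In adipose tissue the SD was 0.59, above that of 84.5% of 10160 genes. From the lowest to the highest library the level varied 5.17-fold in muscle and 3.25-fold in adipose tissue (TMM factors). Counting error at the lowest read number was 9.17% in muscle and 6.32% in adipose tissue, well below these ranges.

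**Figure D2:**
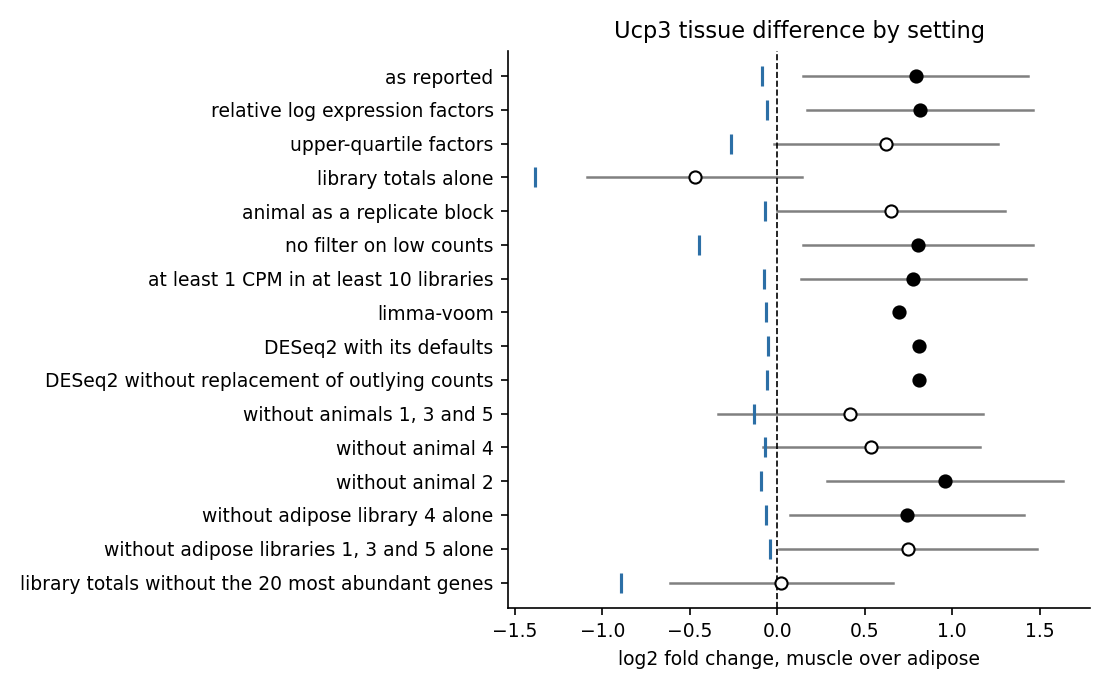
Log2 fold change of Ucp3, muscle over adipose, under 16 settings. Circles are the Ucp3 value (filled where the adjusted p is below 0.05, open otherwise), grey lines are 95% intervals where edgeR was used, and blue ticks are the median over all tested genes. Ucp3 lies between -0.47 and 0.96, and to the right of the blue tick in each setting. A change of scaling moves circle and tick together.

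The proportion of Ucp3 to Ucp2 within a library does not depend on scaling, and it separated the tissues in every animal. For each Ucp2 read, muscle libraries held 2.01 to 16.0 Ucp3 reads, with a median of 4.50, and adipose libraries held 0.0894 to 0.417, with a median of 0.179. The lowest muscle value was that of animal 8 and the highest adipose value that of animal 7, and the tissues did not overlap. On the log2 scale, with 0.5 added to each read number, the ratio was 2.33 ± 1.03 for muscle and -2.46 ± 0.76 for adipose tissue (SD, n = 10). The difference within animals was 4.79 ± 1.47 (SD), or 27.6-fold, with the muscle ratio above the adipose one in each of the 10 animals (two-sided exact permutation test by sign flips within animals, p = 0.00195, which is the lowest value 10 pairs can give). Animals ranged from 7.42-fold (animal 2) to 136-fold (animal 4). In the edgeR fit with TMM factors the log2 fold change was -4.13 for Ucp2 and 0.79 for Ucp3. Most of the difference in the ratio was therefore that of Ucp2, already given above. Ratios of other gene pairs were not compared.

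Of the reads of the 3 genes, Ucp3 took 81.5% ± 9.41 of muscle reads and 16.5% ± 7.28 of adipose reads (SD, n = 10). Ucp2 took 18.5% ± 9.39 and 83.4% ± 7.18. These are shares of reads and were not corrected for transcript length, which was not given in the sources used here, so they are not shares of transcripts. Ucp2 and Ucp3 are similar in sequence. Of the 43 values above 0 for the 3 genes, 42 were not whole, so part of the reads was divided among features. Over all genes only 25.3% of values above 0 were whole, so such values are common and not particular to this pair. How many reads the pair shared was not tested.

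**Figure D3:**
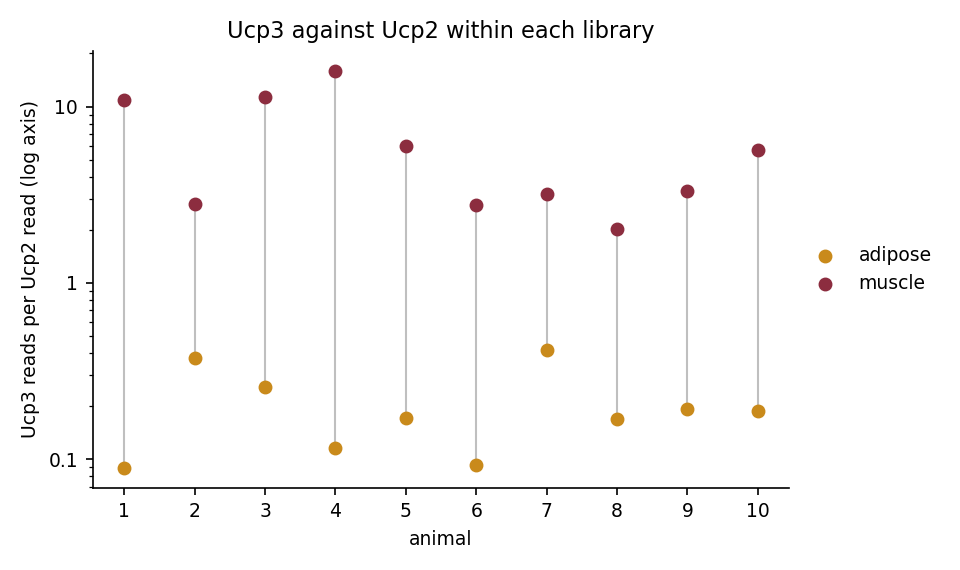
Ucp3 reads per Ucp2 read (log axis) in the muscle and adipose library of each animal, joined by a grey line. All 10 muscle libraries, at 2.01 to 16.0, lie above all 10 adipose libraries, at 0.0894 to 0.417.

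The adipose level of Ucp3 was set beside genes that were nearly restricted to muscle. These were 170 genes with a muscle median of 20 CPM or more that was 100 or more times their adipose median, by library totals. In the adipose libraries they stood at a median of 0.0295% to 1.57% of their muscle level, which the way they were chosen keeps low. Ucp3 stood at 104% to 309% of its own muscle median (42.2% to 137% with TMM factors). Single genes of the set reached up to 92.8% of their muscle level in adipose library 4, 15.2% in library 5 and 13.7% in library 1. The muscle-restricted genes were highest in adipose libraries 3 and 1, at 1.57% and 1.41%, where Ucp3 held 35.1 and 23.0 CPM. They were lowest in adipose library 2, at 0.0295%, where Ucp3 was highest, at 55.0 CPM. Ucp3 was lowest in adipose library 6, at 18.6 CPM, where the muscle-restricted genes stood at 0.129%. The part of muscle transcripts in the adipose level of Ucp3 was not tested.

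**Figure D4:**
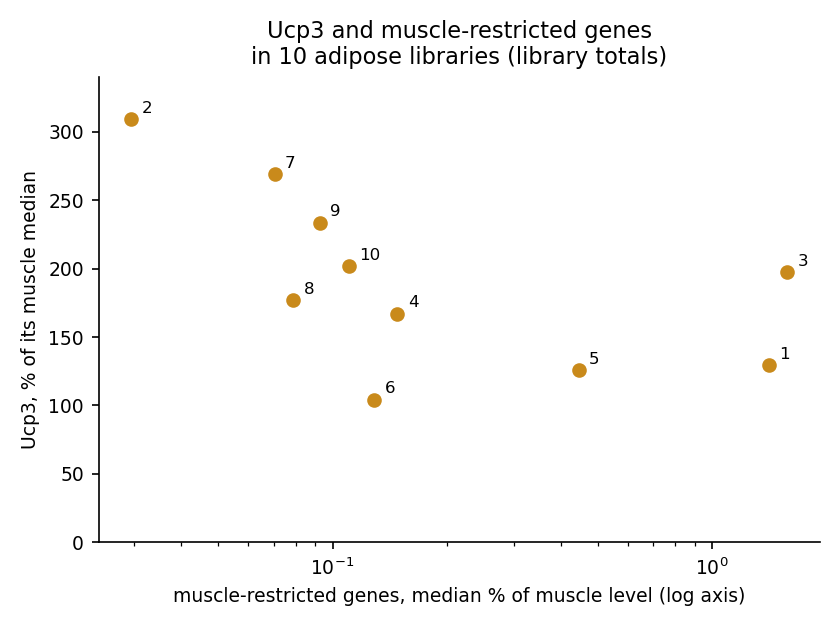
Ucp3 in each adipose library, as a percentage of its median in muscle, against the median level of 170 muscle-restricted genes as a percentage of their muscle level (log axis), both by library totals. Points are the 10 adipose libraries, numbered by animal; Ucp3 lies at 104% to 309% and the other genes, chosen for a low adipose level, at 0.0295% to 1.57%.

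Ucp1, the protein of brown and beige fat, was nearly undetected in both tissues. It had 0 reads in 9 of 10 muscle libraries and 0.5 reads in that of animal 6. In adipose tissue it had 0 reads in 8 of 10 libraries, 1 read in that of animal 6 and 46.46 reads in that of animal 4. A count of 0 allows up to 0.116 to 0.355 CPM, depending on the library's total (3 reads of the total, for counting error only). The other 9 adipose libraries together had 1 Ucp1 read in 140236724, and the 10 muscle libraries 0.5 reads in 161036527. No fold change of Ucp1 between the tissues is given, since it would rest on 1 library.

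Adipose library 4 held Ucp1 at 3.35 CPM by library totals (exact 95% Poisson interval of 46 reads, 2.43 to 4.42 CPM). There it made up 1.16% of the reads of the 3 genes (exact binomial interval 0.843% to 1.53%). This library also held many transcripts that were at or near 0 in every other library. In it 59 genes reached at least 1 CPM while staying at or below 0.1 CPM in each of the other 19 libraries, against at most 1 gene in any other library. Together these 59 genes took 0.233% of its reads, the highest reached 427 CPM, and Ucp1 was number 31 among them by level, next to a median of 4.01 CPM. The part of these transcripts in the Ucp1 reads was not tested. Markers of brown and beige fat fixed for this purpose could not be matched to identifiers, so no other thermogenic gene was examined. Ucp2 and Ucp3 did not stand apart in that library, at 131 and 15.3 CPM within adipose ranges of 76.5 to 157 and 11.3 to 36.8 (TMM factors).

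**Figure D5:**
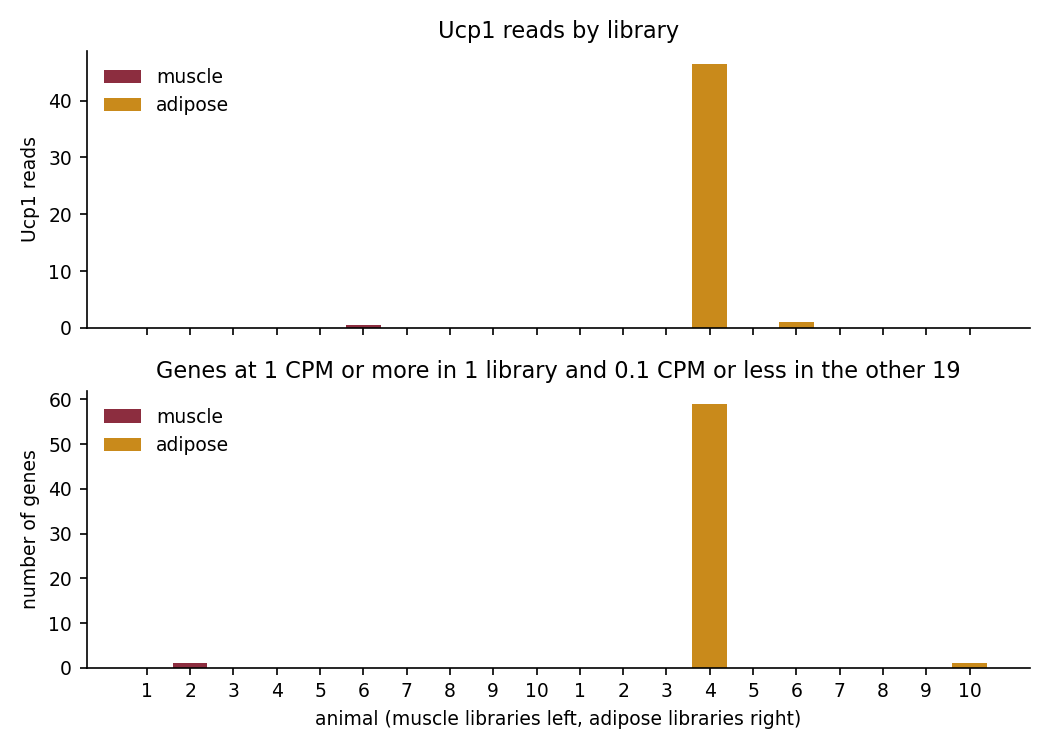
Ucp1 reads (top) and the number of genes at 1 CPM or more in that library and at 0.1 CPM or less in each of the other 19 (bottom), for the 10 muscle and 10 adipose libraries in order of animal. Adipose library 4 stands apart in both, with 46.46 reads and 59 genes.

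No relation between the members' levels across animals passed a test. For those with Ucp3 in muscle the tests cannot decide, since their libraries were chosen by the level of Ucp3 itself. Relations that involve Ucp3 in muscle were computed within the 7 lower libraries, given the step described above. The plan named all 10 animals, and this cut, made on Ucp3 itself after seeing the data, narrows its range. Over all 10 muscle libraries Ucp2 against Ucp3 had r = -0.38, which was not tested. Ucp3 in muscle against Ucp3 in adipose tissue was not computed over all 10 animals. Ucp2 in muscle against Ucp2 in adipose tissue had r = 0.08 and rho = -0.07 over 10 animals (permutation p = 0.826 and 0.865, adjusted p = 0.826 and 0.963). Ucp3 in muscle against Ucp3 in adipose tissue had r = 0.37 and rho = 0.29 over 7 animals (exact permutation p = 0.402 and 0.556, adjusted p = 0.702 and 0.963). Within adipose tissue, Ucp2 against Ucp3 had r = -0.26 and rho = -0.32 over 10 libraries (permutation p = 0.454 and 0.369, adjusted p = 0.702 and 0.963). Within muscle the pair had r = -0.29 and rho = 0.04 over 7 libraries (exact permutation p = 0.527 and 0.963, adjusted p = 0.702 and 0.963). Without the 2 libraries farthest from the median of the first measure, r was -0.28, -0.36, -0.45 and 0.49 in the same order. These 4 relations were the family for the adjustment, and so few animals do not show that the levels are unrelated.

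The genes whose log2 level followed a member most closely over the 10 libraries of a tissue were also sought, as a description. For Ucp2 in muscle the closest of 9332 genes was ENSRNOG00000014834, with r = 0.96. There 96 genes had r of 0.8 or above and 20 had r of -0.8 or below, the lowest being -0.90. For Ucp3 in muscle no such genes are given, because of the step among its libraries. In adipose tissue, the closest of 10159 genes to Ucp3 was ENSRNOG00000005413, with r = 0.92. Here 35 genes had r of 0.8 or above and 16 of -0.8 or below, the lowest being -0.89. For Ucp2 in adipose tissue the closest had r = 0.86, with 16 genes at 0.8 or above, and 25 genes lay at -0.8 or below, the lowest at -0.93. The points of each such r share libraries and scaling. With 10 libraries and so many genes compared, values this high also arise by chance, and how many was not tested.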

How the data were processed

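Messenger RNA libraries of 10 muscle and 10 adipose samples were analysed, grouped and paired by animal from the sample titles. The authors deposited expected counts per gene and library, not normalised; 25.3% of values above 0 were whole within 0.005. Per the submitters' processing notes, bcl2fastq, STAR, featureCounts and rn6 were used; the annotation release, strandedness and treatment of multi-mapping reads were not given in the sources used here. Of the identifiers, 0 matched an Ensembl entry of the gene table, so the gene lists, the cell type markers and the brown and beige fat score were not run.

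Counts were rounded and tested in R 4.3.3 with edgeR 4.0.16 (filterByExpr, TMM, robust quasi-likelihood test, Benjamini-Hochberg adjustment over 13806 genes); the SE is the fold change divided by the root of F. Ratios were compared by an exact sign-flip test and correlations by permutation (100000 resamples, exact up to 7 animals; log2 of TMM-scaled CPM plus 0.1). Alternatives used limma 3.58.1 and DESeq2 1.42.0. The fit was tested on simulated data. The 3 members are always named; the most alike genes were to be the 5 of highest r with a symbol, limited here to single identifiers. Members and lists were chosen with earlier results of these data known. The step in muscle Ucp3, the genes at or near 0 in all but 1 library and the promoter motifs were examined after seeing the data.

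Libraries with the same number come from 1 animal, per the design text and titles. Deviations from tissue means over 8295 genes had r of -0.22 to 0.42 (median 0.12) between libraries of 1 animal, against a median of -0.03 between animals, so the pairing rests on the labels. No libraries agreed within sampling noise (lowest chi-square per degree of freedom 12.4). The reads carry no molecular identifiers. The Poisson and binomial intervals of Ucp1 cover counting error only, while the edgeR intervals of fold changes also include the spread among libraries.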

Additional observations from a re-analysis of the deposited data

Results flagged for a closer look

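Among 10 groups of 10 libraries (reads of Ucp1, levels of Ucp2 and Ucp3, the Ucp3 to Ucp2 ratio and the number of genes seen in 1 library only, in each tissue), 4 had a highest library set apart from the next by Dixon's test at its 95% level. Chance sets apart about 1 group in 20 of normally distributed values. That rate does not hold for these 4 groups, which are nearly all 0, so that 1 higher value is readily set apart. In adipose tissue, library 4 stood apart by its 46.46 Ucp1 reads, where the next had 1, and by its 59 genes seen in that library only, where the next had 1. In muscle, library 6 stood apart with 0.5 Ucp1 reads and library 2 with 1 gene seen in it only, beside 0 in the others; both rest on tiny numbers. No library stood apart by its level of Ucp2 or Ucp3 or by their ratio. Dixon's test compares the extreme library with the next, so it cannot set apart the 3 high muscle libraries of Ucp3 as a set.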

How the results depend on the processing

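Ucp2 was higher in adipose tissue and past the test under all 25 alternatives, with log2 fold changes from -5.43 to -4.04. The Ucp3 to Ucp2 ratio kept its direction and passed in all 15, from 4.34 to 5.00 (log2); without the replicate block its p was 2e-05, the smallest that 100000 permutations give. Ucp3 itself kept its direction and passed in 16 of 25 settings. Its log2 fold change turned to -0.47 with library totals. It kept its direction but did not pass with upper-quartile factors (0.62), with the animal as a replicate block (0.65), without animals 1, 3 and 5 (0.42), without animal 4 (0.54), without adipose libraries 1, 3 and 5 alone (0.75), and with totals that leave out the 20 most abundant genes (0.022). Leaving out each animal in turn gave 0.54 to 0.96, and it did not pass without animal 1 or 4. The settings without animal 2 and without animal 4 recur here, so they are counted again in the 25 and the 15 settings above. The replicate block changed no other call. The settings that leave out adipose libraries alone (1, 3 and 5, or 4) or the 20 most abundant genes were chosen after seeing the data. The number of genes that differed between the tissues ran from 10354 of 13938 tested, without animals 1, 3 and 5, to 13894 of 23140, with no filter on low counts. The number tested thus differed too, and the highest count was not the highest share. The relation of Ucp2 between the tissues turned from r = 0.08 to -0.14 with library totals and -0.15 without animals 1, 3 and 5, none past a test. Ucp1 enters the fit only without a filter on low counts, and its value there, which rests on adipose library 4, is not given. The planned ratios of Ucp1 to the other members were left out, because at 0 to 1 reads in 19 of 20 libraries they would consist of the added constant. Read numbers of Ucp2 in muscle, at 37.3 to 108, limit its precision there.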
